A study of Homo sapiens with 12 samples.

Results

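The 10 genes described here encode inhibitors of MAP kinase signalling: the dual-specificity phosphatases DUSP1, DUSP4, DUSP5, DUSP6 and DUSP10, the Sprouty proteins SPRY1, SPRY2 and SPRY4, and the Sprouty-related proteins SPRED1 and SPRED2. They were taken by symbol from the 56634 genes of the count table, and were chosen with earlier results of these data known. All 10 passed the filter on low counts that left 14822 tested genes.

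In the ERK pathway, growth factor receptors activate RAS, which switches on the kinases RAF, MEK and ERK in turn. Active ERK induces transcription of its own brakes: DUSP phosphatases remove the activating phosphates from MAP kinases, and Sprouty and Spred proteins restrain the steps between the receptor and RAF. DUSP1, DUSP5 and several Sprouty genes are known as early response genes, whose transcripts can change within minutes to hours of a stimulus, and some DUSP proteins act mainly on the stress kinases JNK and p38, which TNFα activates.

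The cells were HEK293, a human embryonic kidney line transformed with adenovirus DNA, profiled by bulk RNA sequencing as 12 libraries in 4 groups, each with 3 libraries that the labels call biological replicates. The DMSO group was kept for 3 h in 0.1% DMSO, the solvent, and the SnxB group for 3 h in 1 µM Senexin B, which inhibits CDK8 and CDK19, the kinases of the Mediator complex of transcription. The TNF group had 0.1% DMSO for 1 h before 2 h of TNFα, an inflammatory cytokine, at 10 ng/mL, and the TNF_SnxB group had 1 µM Senexin B for 1 h before the same 2 h of TNFα. The p values below rest on the spread between libraries of the same group, estimated jointly over the 4 groups, TNF_SnxB included.

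Library totals ranged from 8705277 to 50943310 counts, with TNF library 2 the deepest, and the floor of 3 counts lay between 0.0595 and 0.342 CPM. CPM values are counts scaled to a common library size, by TMM over the tested genes. The TNFα target NFKBIA rose from 27.3 ± 1.94 CPM (SD, n = 3) in DMSO to 271 ± 1.68 in TNF, and MYC fell from 91.1 ± 4.00 in DMSO to 18.0 ± 0.789 in SnxB. Between libraries of a group the chi-square divided by its degrees of freedom was 1.065 to 1.594. The exception was TNF_SnxB library 1, at 5.79 against library 2 and 5.52 against library 3 of its group, which gave 1.21 between them. In TNF_SnxB libraries 2 and 3 the deviation of each gene from its mean over all libraries fell with transcript GC content (Spearman -0.683 and -0.682 across genes, against -0.117 to 0.448 in the other 10 libraries). Results of the 10 genes that rest on TNF_SnxB and that were called or are discussed are therefore given below also with offsets that remove the trend with GC content and length (called the GC correction), and with TNF_SnxB library 1 alone. Of 7 genes associated with HEK293 cells, VIM, KRT8, KRT18 and NEFL were present. PAX2 averaged 0.388 to 0.843 and NEFM 0.595 to 0.779 CPM by group, and PAX8 had 1 count in all. Their summed level was 788 to 812 CPM in DMSO and 825 to 834 in TNF, against 714 to 761 in SnxB and 730 to 752 in TNF_SnxB, lower in each library with Senexin B, and the part of this in the results below was not tested. Of 12 leukocyte, endothelial and fibroblast markers CD3E, CDH5 and DCN had no count in any library, and all 12 summed to 15.7 to 20.7 CPM, mostly COL1A1. In bulk RNA, fewer cells expressing a gene and less RNA per cell cannot be told apart.

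Senexin B changed 2 of the 10 genes without TNFα, against 2.03% of all tested genes, and 5 with it, against 27.2%. After the GC correction 4 of the 10 were called under TNFα, against 11.6% of all tested genes. With TNF_SnxB library 1 alone the log2 fold changes of the 5 were -0.62 (DUSP1), -0.59 (SPRY1), -0.52 (DUSP5), 1.59 (SPRY4) and 0.28 (SPRED2). DUSP1, the most abundant of the 10 genes per length in DMSO cells, and SPRY1 fell with Senexin B both without and with TNFα. DUSP5 fell with Senexin B under TNFα. SPRY4, the least abundant in DMSO cells, and SPRED2 were higher with Senexin B under TNFα. The SPRY1 call without TNFα was at the threshold, and the DUSP5 call was lost after the GC correction. TNFα alone raised DUSP1, 1 of the 10 genes against 2.02% of all tested genes. In cells that had the inhibitor SPRY2 was lower and SPRED2 higher with TNFα, 2 of the 10 against 14.2%. The SPRED2 call was at the threshold (edgeR adjusted p = 0.0487) and was lost in 14 of 21 alternative fits, the SPRY2 call in 3. DUSP4, DUSP6, DUSP10 and SPRED1 passed the test in none of the 4 pairwise comparisons.

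**Figure D1:**
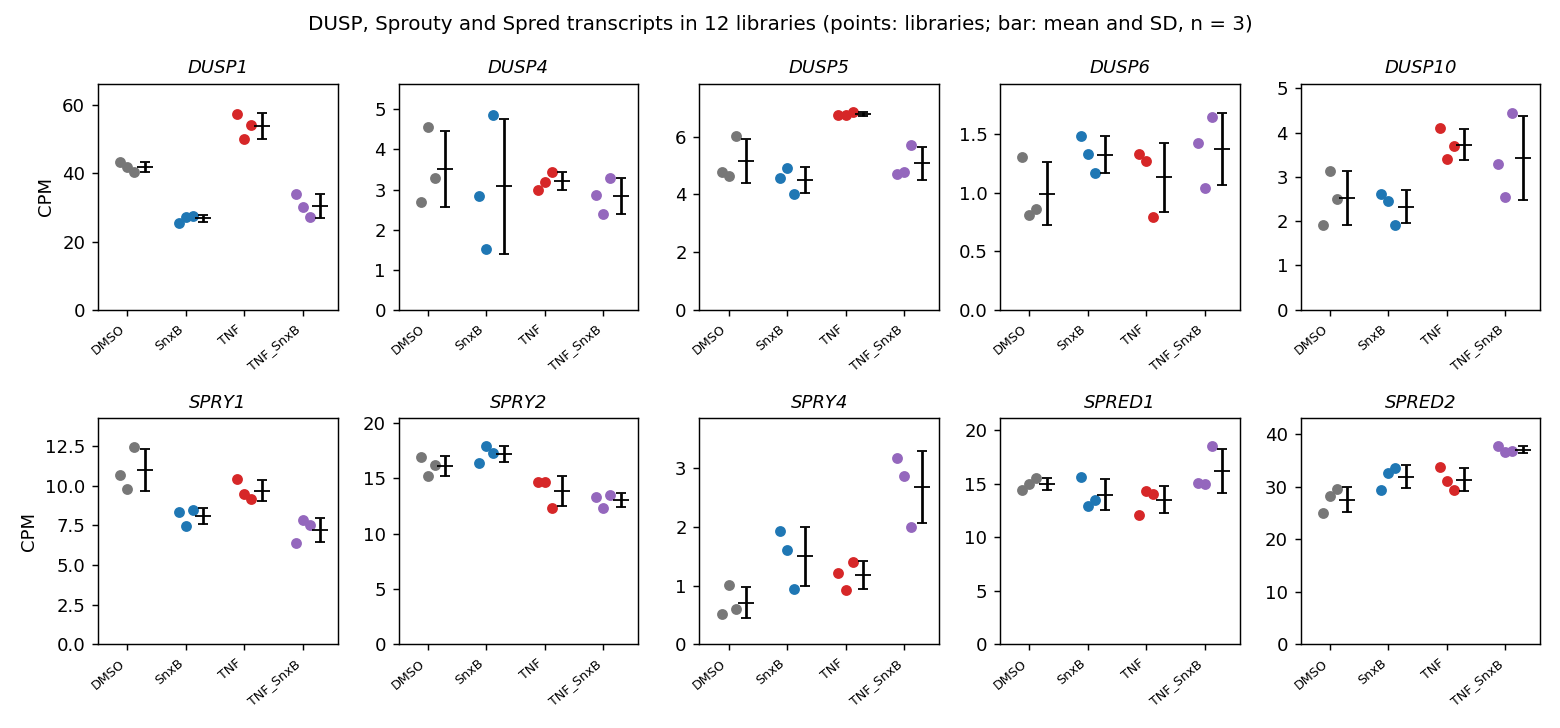
Level of each gene (y axis, CPM, starting at 0) in the 12 libraries of the 4 groups (x axis), with points for libraries and bars for the mean and SD of 3. DUSP1 runs from 25.5 to 27.5 CPM in SnxB and from 50.2 to 57.6 in TNF, while SPRY4 lies below 3.2 CPM in every library and is highest in TNF_SnxB.

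Levels of different genes were compared per length, as RPKM over the exons annotated by GENCODE. In DMSO cells DUSP1 led with 20.7 ± 0.734 RPKM (SD, n = 3). SPRED2 at 5.34 ± 0.464 and SPRY2 at 5.30 ± 0.288 RPKM came next and did not differ beyond their spread. SPRY1 followed at 2.77 ± 0.334 RPKM. DUSP5 at 1.97 ± 0.292 and SPRED1 at 1.81 ± 0.0673 RPKM again overlapped. DUSP10 had 0.863 ± 0.211, DUSP4 0.483 ± 0.131, DUSP6 0.214 ± 0.0583 and SPRY4 0.108 ± 0.0401 RPKM, with no overlap between neighbours in this order. DUSP6 and SPRY4, both known as sensitive readouts of ERK activity, thus sat at the bottom of the order. DUSP6 exceeded the CPM minimum of the filter, 0.911, in 9 libraries and SPRY4 in 10. In DMSO each of these 2 genes exceeded it in 1 of 3 libraries. The other 8 genes exceeded it in all 12.

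DUSP1 (GRCh38 chr5:172768090-172771195, minus strand), a nuclear phosphatase that inactivates p38 and JNK as well as ERK, gave 43.4, 41.8 and 40.4 CPM in the DMSO libraries and 57.6, 50.2 and 54.1 in the TNF libraries. It gave 25.5, 27.3 and 27.5 CPM in the SnxB libraries and 34.0, 30.2 and 27.2 in the TNF_SnxB libraries. All 6 libraries with Senexin B lay below all 6 without it, and all 3 TNF libraries lay above all 3 DMSO libraries. Senexin B lowered DUSP1 by 1.56-fold without TNFα (log2 fold change -0.64, SE 0.0793, edgeR adjusted p = 2.1e-06) and by 1.76-fold with it (-0.82, SE 0.0687, adjusted p = 7.62e-10). Under TNFα the log2 fold change was -0.69 after the GC correction and -0.62 with TNF_SnxB library 1 alone, and it passed the test in both. TNFα raised DUSP1 by 1.27-fold without the inhibitor (0.34, SE 0.0658, adjusted p = 0.0018). With the inhibitor the difference was 0.17 (SE 0.0829, adjusted p = 0.176), and it passed the test after the GC correction (0.24, adjusted p = 0.0427) but not with TNF_SnxB library 1 alone (0.34, adjusted p = 0.083). The TNFα effects with and without inhibitor differed by -0.17 (SE 0.106, adjusted p = 0.332), by -0.06 after the GC correction and by 0.02 with TNF_SnxB library 1 alone, so no difference between them was detectable.

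Promoter windows from RefSeq (GRCh38.p14), 250 bases before to 50 bases after a start, were found for 8 of the 10 genes, with more than 1 start for some. Shown are the 250 bases before the first start of DUSP1 and SPRY1, which the inhibitor lowered, and of SPRY2, which passed the test in neither Senexin B comparison, as windows that overlap no GENCODE exon. They lie at chr5:172771196-172771445 (minus strand), chr4:123396545-123396794 (plus strand) and chr13:80341127-80341376 (minus strand), each just upstream of the RefSeq start and in no intron of its gene. Capitals mark TGACG on either strand, the short form of the cAMP response element TGACGTCA, which CREB and ATF family factors bind.
DUSP1: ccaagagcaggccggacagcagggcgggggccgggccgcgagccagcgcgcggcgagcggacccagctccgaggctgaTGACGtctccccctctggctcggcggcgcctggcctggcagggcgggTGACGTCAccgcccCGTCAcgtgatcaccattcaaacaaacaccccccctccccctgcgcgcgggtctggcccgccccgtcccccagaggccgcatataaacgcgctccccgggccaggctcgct
SPRY1: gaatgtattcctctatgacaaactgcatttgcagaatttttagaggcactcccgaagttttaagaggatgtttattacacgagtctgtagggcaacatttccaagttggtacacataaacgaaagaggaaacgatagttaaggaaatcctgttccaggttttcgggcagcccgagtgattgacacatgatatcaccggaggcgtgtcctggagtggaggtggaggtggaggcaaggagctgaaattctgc
SPRY2: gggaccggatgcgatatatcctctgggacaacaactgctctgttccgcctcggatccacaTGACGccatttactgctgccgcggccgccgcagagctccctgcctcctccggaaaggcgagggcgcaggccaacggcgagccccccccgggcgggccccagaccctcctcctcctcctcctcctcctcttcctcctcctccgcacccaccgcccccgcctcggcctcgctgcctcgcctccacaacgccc
The DUSP1 window held TGACG at bases -172, -125, -122 and -111 from the start, of which those at -125 and -122 are the 2 strands of one complete TGACGTCA. Of 35116 RefSeq promoter windows 24.55% held TGACG and 1.848% held TGACGTCA, and no other window of the 8 genes held the complete element. DUSP1 also held the E-box CACGTG at -108 (7.256% of windows), which overlaps the TGACG match at -111, and TATAAA at -30 (11.53%). The SPRY2 window held TGACG at -190 and the ETS core CCGGAA at -142 (17.25%), and the SPRY1 window shown held none of the motifs searched, while the window of its second start held the ETS core at -67. In all, 5 of the 13 windows of the 8 genes held TGACG, each of a different gene. Besides DUSP1 and SPRY2 these were DUSP10 at -4, in the window of its second start, SPRED2 at 30, in that of its first, and SPRY4 at -68. SPRED2 held the AP-1 site at -6 and 34 and TATAAA at -31 in the window of its second start, chr2:65366729-65367028. The motifs searched were the cAMP response element and its short form, the AP-1 site TGANTCA (7.709% of windows), the ETS core, the E-box, the TATA box TATAAA, the CArG box and the kappaB site, on both strands. The kappaB site (11.27% of windows) and the CArG box (1.293%) matched no window of the 8 genes. Such matches describe letters in the window, and no binding was measured.

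DUSP5 (chr10:110497838-110511544, plus strand), a nuclear phosphatase selective for ERK, gave 4.77, 4.66 and 6.04 CPM with DMSO alone, 4.56, 4.93 and 4.02 with the inhibitor (SnxB), 6.75, 6.75 and 6.86 with TNFα (TNF) and 4.72, 4.79 and 5.72 with both (TNF_SnxB). The 3 TNF libraries lay above all other 9, and the other groups overlapped. Under TNFα, Senexin B lowered DUSP5 by 1.32-fold (log2 fold change -0.40, SE 0.127, edgeR adjusted p = 0.0199). That call was lost after the GC correction (-0.27, adjusted p = 0.184). It was also lost with DESeq2 (adjusted p = 0.106), with TNF_SnxB library 1 alone (-0.52, adjusted p = 0.254), without TNF library 2 (adjusted p = 0.0837) and without TNF_SnxB library 2 (adjusted p = 0.106). The excess of TNF over DMSO, 0.39 (SE 0.13), had an adjusted p of 0.167. Without TNFα the difference with Senexin B was -0.20 (SE 0.159, adjusted p = 0.706).

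DUSP4 (chr8:29333064-29350668, minus strand), a close relative of DUSP1 that also resides in the nucleus, gave 2.69, 4.56 and 3.28 CPM with DMSO alone, 2.85, 1.52 and 4.87 with the inhibitor (SnxB), 2.99, 3.19 and 3.43 with TNFα (TNF) and 2.85, 2.39 and 3.29 with both (TNF_SnxB). The SnxB libraries spanned the values of all other groups. Log2 differences ran from -0.19 to -0.08 over the 4 pairwise comparisons, with SE of 0.228 to 0.273. The 95% interval for Senexin B without TNFα, -0.74 to 0.35, excludes neither no change nor a fall to the size seen for DUSP1.

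DUSP6 (chr12:89347232-89353271, minus strand), the cytoplasmic phosphatase that keeps ERK inactive outside the nucleus, gave 1.30, 0.810 and 0.862 CPM with DMSO alone, 1.48, 1.33 and 1.16 with the inhibitor (SnxB), 1.33, 1.27 and 0.792 with TNFα (TNF) and 1.43, 1.04 and 1.64 with both (TNF_SnxB). All 4 groups overlapped. The difference for Senexin B was 0.40 (SE 0.333, adjusted p = 0.711) without TNFα and 0.21 (SE 0.262, adjusted p = 0.61) with it. The 95% interval without TNFα ran from -0.28 to 1.08, so a doubling was not excluded at 33 to 85 counts per group. The exons of DUSP6 overlap an antisense gene, AC024909.2, and reads of the 2 cannot be told apart here because the strand setting of the counting is not given in the sources used here.

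DUSP10 (chr1:221701424-221742176, minus strand), a phosphatase for JNK and p38 more than for ERK, gave 1.91, 3.14 and 2.50 CPM in DMSO and 4.10, 3.39 and 3.70 in TNF. It gave 2.62, 2.46 and 1.90 CPM in SnxB and 3.29, 2.55 and 4.43 in TNF_SnxB. All TNF libraries lay above all DMSO libraries, and the groups with inhibitor overlapped. The difference with TNFα was 0.52 (SE 0.202, adjusted p = 0.285) without the inhibitor and 0.57 (SE 0.232, adjusted p = 0.094) with it. The latter was 0.53 after the GC correction (adjusted p = 0.208) and 0.50 with TNF_SnxB library 1 alone (adjusted p = 0.701). It depended on single libraries: it was 0.30 without TNF_SnxB library 3 (adjusted p = 0.547) and 0.61 without TNF_SnxB library 1, where it passed the test (adjusted p = 0.0396).

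SPRY1 (chr4:123396795-123403760, plus strand), which limits receptor tyrosine kinase signalling in the developing kidney, gave 10.7, 9.82 and 12.4 CPM in DMSO and 8.32, 7.48 and 8.46 in SnxB. It gave 10.4, 9.48 and 9.15 CPM in TNF and 6.37, 7.82 and 7.51 in TNF_SnxB. As with DUSP1, all 6 libraries with Senexin B lay below all 6 without it. Senexin B lowered SPRY1 by 1.37-fold without TNFα (log2 fold change -0.45, SE 0.122, edgeR adjusted p = 0.0485) and by 1.31-fold with it (-0.39, SE 0.112, adjusted p = 0.0106). The first call is at the threshold: DESeq2 gave an adjusted p of 0.179, and it was lost without any 1 of DMSO libraries 1 and 3, the 3 SnxB libraries, the 3 TNF libraries or TNF_SnxB library 3, with adjusted p between 0.0505 and 0.291. The second passed after the GC correction (-0.44, adjusted p = 0.0037) and missed the threshold with TNF_SnxB library 1 alone (-0.59, adjusted p = 0.0764). TNFα without inhibitor gave -0.20 (SE 0.105, adjusted p = 0.532).

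SPRY2 (chr13:80335976-80340951, minus strand), a Sprouty protein that binds the adaptor GRB2 and the ubiquitin ligase CBL, gave 16.9, 15.2 and 16.2 CPM with DMSO alone, 16.4, 17.9 and 17.2 with the inhibitor (SnxB), 14.6, 14.6 and 12.3 with TNFα (TNF) and 13.3, 12.3 and 13.5 with both (TNF_SnxB). All 6 libraries with TNFα lay below all 6 without it. TNFα lowered SPRY2 by 1.32-fold in cells given Senexin B (log2 fold change -0.40, SE 0.0962, edgeR adjusted p = 0.00742). This was -0.41 after the GC correction (adjusted p = 0.00364), and missed the threshold with TNF_SnxB library 1 alone (-0.37, adjusted p = 0.288) and without TNF_SnxB library 2 (-0.36, adjusted p = 0.0531). In cells without the inhibitor the difference was -0.20 (SE 0.087, adjusted p = 0.412), and the 2 effects differed by -0.21 (SE 0.129, adjusted p = 0.339). Senexin B itself gave 0.09 (SE 0.0937, 95% interval -0.10 to 0.29) without TNFα and -0.11 (SE 0.0893, 95% interval -0.30 to 0.07) with it.

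SPRY4 (chr5:142310427-142326455, minus strand), a Sprouty protein whose transcript is a common readout of ERK activity, gave 0.521, 1.01 and 0.604 CPM in DMSO (6, 10 and 7 counts) and 1.94, 1.61 and 0.952 in SnxB (17, 17 and 9 counts). It gave 1.22, 0.933 and 1.41 CPM in TNF (11, 47 and 16 counts) and 3.18, 2.87 and 2.00 in TNF_SnxB (29, 36 and 28 counts). The 3 TNF_SnxB libraries were the highest of all 12, and SnxB overlapped both DMSO and TNF. Under TNFα, Senexin B raised SPRY4 by 2.46-fold (log2 fold change 1.30, SE 0.249, edgeR adjusted p = 0.00047). It was 1.33 after the GC correction (adjusted p = 7.78e-05) and 1.59 with TNF_SnxB library 1 alone (adjusted p = 0.00368). DESeq2 gave SPRY4 no adjusted p in this comparison. Without TNFα the difference was 1.09 (SE 0.379, 95% interval 0.31 to 1.87), with an adjusted p of 0.174. TNFα in cells given the inhibitor gave 0.81 (SE 0.278, adjusted p = 0.0506), which passed the test without the low-count filter (adjusted p = 0.0404). It was 0.83 after the GC correction (adjusted p = 0.0669) and 1.09 with TNF_SnxB library 1 alone (adjusted p = 0.193).

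SPRED1 (chr15:38252326-38357249, plus strand), which brings the RAS inhibitor neurofibromin to the membrane, gave 14.4, 15.0 and 15.5 CPM with DMSO alone, 15.6, 12.9 and 13.4 with the inhibitor (SnxB), 12.1, 14.3 and 14.1 with TNFα (TNF) and 15.0, 15.0 and 18.5 with both (TNF_SnxB). The TNF libraries lay just below the DMSO and TNF_SnxB libraries. Senexin B gave -0.11 (SE 0.109, adjusted p = 0.784) without TNFα and 0.24 (SE 0.0941, adjusted p = 0.0584) with it. The latter shrank to 0.07 after the GC correction and to 0.11 with TNF_SnxB library 1 alone. Without TNF_SnxB library 1 it was 0.27 and passed the test (adjusted p = 0.00905), as did TNFα in cells given the inhibitor (0.28, adjusted p = 0.0276). With all libraries the latter was 0.23 (adjusted p = 0.142), and after the GC correction 0.11 (adjusted p = 0.659). The SPRED1 transcript, at 38.9% GC, falls in the second lowest decile of tested genes by GC content. The median difference of that decile was 0.15 for Senexin B under TNFα and 0.12 for TNFα in cells given the inhibitor.

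SPRED2 (chr2:65310851-65432637, minus strand), the relative of SPRED1 with the same RAS-inhibiting role, gave 24.9, 28.1 and 29.6 CPM in DMSO and 29.4, 32.7 and 33.5 in SnxB. It gave 33.7, 31.0 and 29.4 CPM in TNF and 37.8, 36.5 and 36.8 in TNF_SnxB. The TNF_SnxB libraries were the highest of all 12, the other 3 groups overlapped, and DMSO held the lowest 2. Under TNFα, Senexin B raised SPRED2 by 1.19-fold (log2 fold change 0.25, SE 0.0658, edgeR adjusted p = 0.00676). The size was 0.25 after the GC correction (adjusted p = 0.00101) and 0.28 with TNF_SnxB library 1 alone (adjusted p = 0.101), and the call was lost without TNF library 2 (0.24, adjusted p = 0.0523). TNFα in cells given the inhibitor raised it by 1.16-fold (0.21, SE 0.0724, adjusted p = 0.0487). This call is at the threshold: it was lost with DESeq2 (adjusted p = 0.0942) and with only the groups compared (adjusted p = 0.1). It was also lost without any 1 of DMSO library 2, the 3 SnxB libraries, the 3 TNF libraries and TNF_SnxB libraries 2 and 3 (adjusted p between 0.0537 and 0.207), and with TNF_SnxB library 1 alone (0.24, adjusted p = 0.353). It was kept after the GC correction (0.21, adjusted p = 0.0473). Without TNFα the inhibitor gave 0.21 (SE 0.0769, adjusted p = 0.198), and TNFα without the inhibitor gave 0.18 (SE 0.0702, adjusted p = 0.299).

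**Figure D2:**
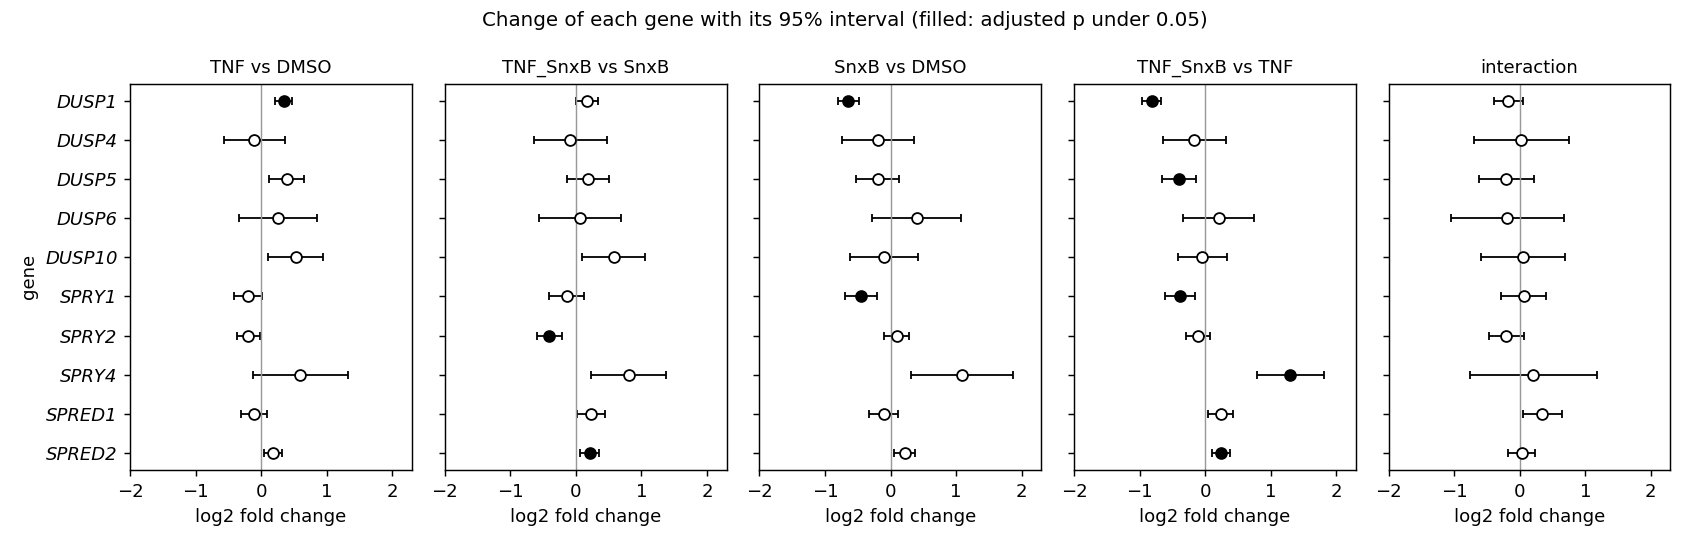
Log2 fold change (x axis) of each gene (y axis) in the 4 pairwise comparisons and the interaction, with the 95% interval of the edgeR fit as bars and filled points for an adjusted p under 0.05. DUSP1 is at -0.64 and -0.82 with Senexin B, SPRY4 at 1.09 and 1.30, and every interval of the interaction except that of SPRED1 includes 0.

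Counted by comparison, TNFα without inhibitor changed 1 of the 10 genes, DUSP1, which rose (edgeR adjusted p under 0.05), against 2.02% of all tested genes, 1.43% higher and 0.594% lower. At an unadjusted p under 0.05 there were 5, namely DUSP1, DUSP5, DUSP10 and SPRED2 higher and SPRY2 lower, against 10.4% of tested genes. The groups did not overlap for 5 genes, DUSP1, DUSP5 and DUSP10 above and SPRY2 and SPRED1 below, against 20.2% of tested genes. The median log2 difference was 0.21 over the 10 genes and 0.00 over all tested genes.

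Senexin B without TNFα lowered 2 of the 10 genes, DUSP1 and SPRY1, and raised none, against 2.03% of tested genes called (1.69% lower and 0.344% higher). At an unadjusted p under 0.05 there were 4, with SPRY4 and SPRED2 on the higher side, against 12.1% of tested genes. DUSP1 and SPRY1 were also the 2 genes whose groups did not overlap, against 20.4% of tested genes. The median log2 difference was -0.10 over the 10 genes and 0.00 over all.

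Under TNFα, Senexin B changed 5 of the 10 genes: DUSP1, DUSP5 and SPRY1 fell, and SPRY4 and SPRED2 rose. The background is high here, with 27.2% of tested genes called, 13.3% higher and 13.9% lower, and 32.1% with groups that did not overlap (6 of the 10 genes, the 5 called and SPRED1). At an unadjusted p under 0.05 there were 6, the same as those without overlap, against 39.1% of tested genes. The median log2 difference was -0.08 over the 10 genes and 0.00 over all. After the GC correction 4 of the 10 genes and 11.6% of tested genes were called, and with TNF_SnxB library 1 alone 2 of the 10, DUSP1 and SPRY4, and 2.64% of tested genes.

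TNFα in cells given Senexin B changed 2 of the 10 genes, SPRED2 upward and SPRY2 downward, against 14.2% of tested genes, 7.38% higher and 6.83% lower. The groups did not overlap for 3 genes, these 2 and SPRY4, against 22.7% of tested genes. After the GC correction 3 of the 10 genes were called, DUSP1 joining them, and 4.9% of tested genes, and with TNF_SnxB library 1 alone edgeR called 0 of the 10 (with all libraries DESeq2 called 1, and 5 had an unadjusted p under 0.05, against 29.5% of tested genes) and 1.43% of tested genes.

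The interaction compares the Senexin B effect with TNFα to that without it, which is the same number as the TNFα effect with inhibitor minus that without. By edgeR 0 of the 10 genes passed, against 2.5% of tested genes (0.891% higher and 1.61% lower), and 1, SPRED1, had an unadjusted p under 0.05 (0.34, SE 0.144, adjusted p = 0.146), against 23.5% of tested genes. DESeq2 gave 2 of the 10 an adjusted p and called 0. SPRED1 passed without TNF_SnxB library 1 (0.38, adjusted p = 0.0239), was 0.18 after the GC correction (adjusted p = 0.731) and 0.21 with TNF_SnxB library 1 alone (adjusted p = 0.861), and the median interaction in its decile of GC content was 0.15. For DUSP1 the 95% interval of the interaction ran from -0.39 to 0.04 and for SPRY4 from -0.76 to 1.18, so unequal effects of that size were not detectable with these libraries.

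**Figure D3:**
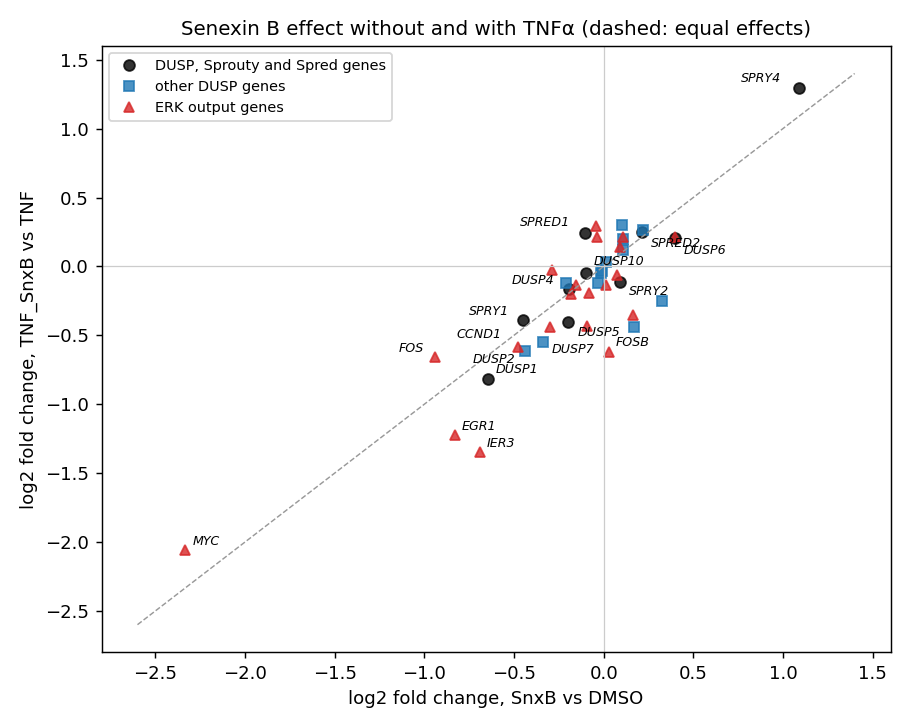
Log2 fold change with Senexin B without TNFα (x axis) and with TNFα (y axis), with a dashed line where both are equal. Circles are the 10 genes, squares the other tested DUSP genes and triangles the genes listed as ERK output. DUSP1, SPRY1 and DUSP5 lie with MYC, EGR1 and IER3 in the lower left, and SPRY4 alone lies beyond 1 on both axes.

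The 2 Senexin B comparisons share no library. For 8 of the 10 genes, all but SPRY2 and SPRED1, the sign was the same in both, against 54.608% of tested genes. The 2 TNFα comparisons share no library either, and the sign was the same for 9 of the 10, all but SPRED1, against 44.8185% of tested genes. Over the tested genes these 2 comparisons ran with GC content in opposite directions (Spearman 0.274 without and -0.635 with the inhibitor). The signs were not counted after the GC correction, so these shares include that trend. Averages over the other treatment were added after the data were seen. For the average Senexin B effect edgeR called 5 of the 10 genes, against 15.6% of tested genes (7.23% higher and 8.35% lower). DUSP1 averaged -0.73 (SE 0.0525, adjusted p = 1.36e-11), SPRY1 -0.42 (SE 0.0827, adjusted p = 0.000759) and DUSP5 -0.30 (SE 0.102, adjusted p = 0.045). SPRY4 averaged 1.19 (SE 0.226, adjusted p = 0.000491) and SPRED2 0.23 (SE 0.0506, adjusted p = 0.0022). Of these, DUSP5 was lost after the GC correction (-0.23, adjusted p = 0.143), with DESeq2 (adjusted p = 0.159) and without any 1 of DMSO libraries 1 and 3, the SnxB libraries, the TNF libraries and TNF_SnxB library 2 (adjusted p between 0.052 and 0.158). The other 4 were called in each fit without 1 library, after the GC correction (DUSP1 -0.66, SPRY1 -0.44, SPRY4 1.21 and SPRED2 0.24) and with TNF_SnxB library 1 alone (-0.63, -0.52, 1.34 and 0.25).

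For the average TNFα effect edgeR called 4 of the 10 genes, against 5.29% of tested genes (3.13% higher and 2.16% lower). DUSP1 averaged 0.25 (SE 0.0529, adjusted p = 0.00224), DUSP10 0.55 (SE 0.154, adjusted p = 0.0306) and SPRED2 0.20 (SE 0.0504, adjusted p = 0.0172), and SPRY2 averaged -0.30 (SE 0.0649, adjusted p = 0.00335). SPRY4, at 0.70 (SE 0.224, adjusted p = 0.065), passed after the GC correction (0.71, adjusted p = 0.0369), without TNF_SnxB library 1 (adjusted p = 0.031) and without TNF_SnxB library 3 (adjusted p = 0.0364). DUSP5, at 0.28 (SE 0.102, adjusted p = 0.112), passed without TNF_SnxB library 1 (adjusted p = 0.0328). DUSP10 lost its call without any 1 of DMSO libraries 1 and 3, SnxB libraries 2 and 3, TNF libraries 1 and 3, and TNF_SnxB library 3 (adjusted p between 0.056 and 0.191). SPRED2 lost its call without DMSO library 1, SnxB library 1 or TNF library 2 (adjusted p between 0.0507 and 0.0862), and DESeq2 called neither (adjusted p = 0.143 and 0.0622). After the GC correction DUSP1 averaged 0.27, DUSP10 0.53, SPRED2 0.19 and SPRY2 -0.30, and all 4 were called. With TNF_SnxB library 1 alone DUSP1 (0.33), SPRED2 (0.21), SPRY2 (-0.28) and SPRY4 (0.84) were called and DUSP10 was not (0.51, adjusted p = 0.139).

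**Figure D4:**
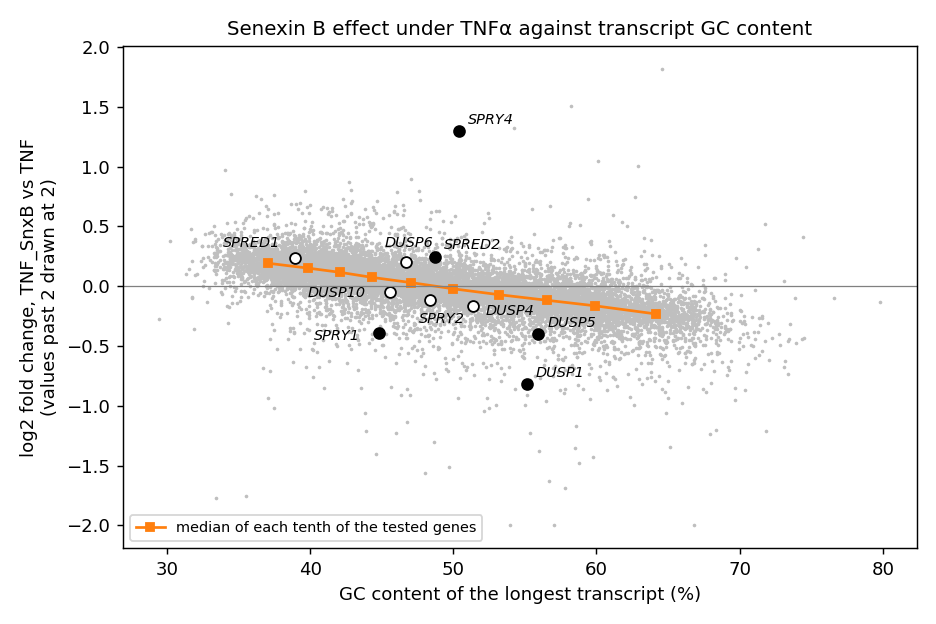
Log2 fold change of Senexin B under TNFα (y axis) against the GC content of the longest transcript (x axis, %), for tested genes (grey), the median of each decile of them (squares) and the 10 genes (circles, filled where the adjusted p is under 0.05). DUSP1 at -0.82 and SPRY4 at 1.30 lie far from the medians of their deciles, -0.12 and -0.02, while SPRED1 at 0.24 lies near its own, 0.15.

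Under TNFα the log2 fold change of all tested genes with Senexin B fell with GC content (Spearman -0.706 over 13419 genes, not independent of each other), and for TNFα in cells given the inhibitor the value was -0.635. Without TNF_SnxB it was 0.274 for TNFα and 0.0549 for Senexin B. DUSP1 has 55.1% GC and DUSP5 55.9%, in a decile of genes with a median log2 fold change of -0.12 under TNFα. SPRY1, at 44.8% GC, was lower by 0.39 in a decile with a median of 0.07. SPRY4 has 50.4% and SPRED2 48.7% GC, in a decile with a median of -0.02. The fall of SPRY1 was thus opposite in sign to the median of its decile, and the falls of DUSP1 and DUSP5 had the sign of theirs. For SPRY4 and SPRED2 the median of -0.02 was too small to give a trend to set their rises against. The part of GC content in the individual results was not tested beyond the correction.

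**Figure D5:**
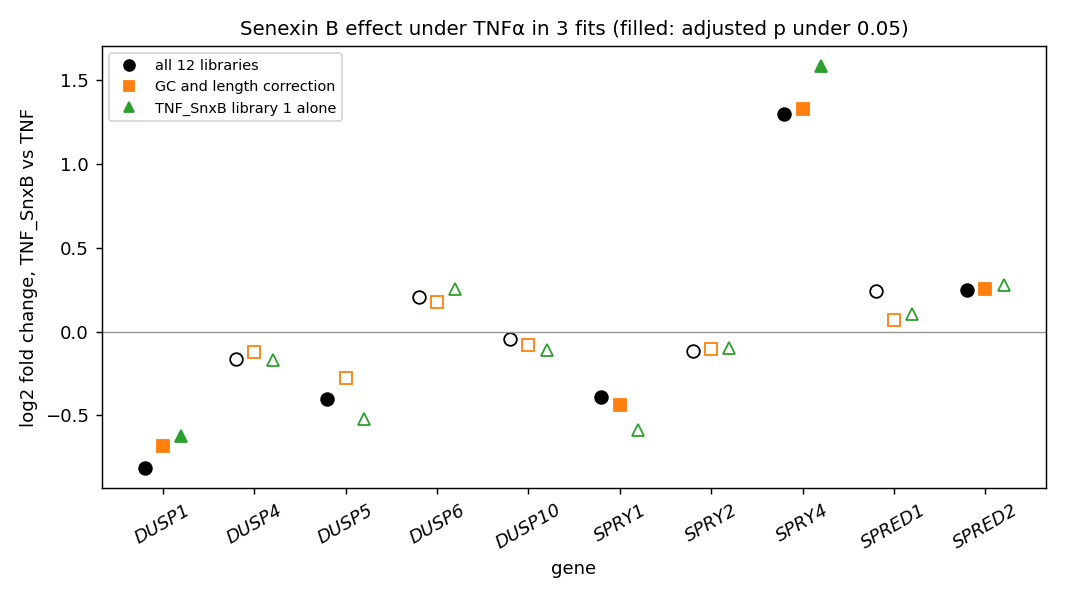
Log2 fold change of Senexin B under TNFα (y axis) for each gene (x axis) with all 12 libraries (circles), after the GC and length correction (squares) and with TNF_SnxB library 1 alone (triangles), filled where the adjusted p is under 0.05. DUSP1 at -0.82, -0.69 and -0.62 and SPRY4 at 1.30, 1.33 and 1.59 are filled in all 3 fits, and DUSP5 at -0.40 in the first only.

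The other phosphatases of the family are the nearest relatives. Of 14 other DUSP family phosphatases 12 were tested. TNFα without inhibitor raised 2 of them, against 1.43% of all tested genes. These were the JNK and p38 phosphatases DUSP16 (48.3 ± 3.47 to 67.4 ± 0.902 CPM, log2 fold change 0.48, SE 0.0545, edgeR adjusted p = 5.33e-07) and DUSP8 (8.07 ± 0.421 to 15.2 ± 1.52 CPM, 0.87, SE 0.108, adjusted p = 2.53e-06). DUSP1 itself was at 0.34. Both rose also in cells given Senexin B (0.57 and 0.77), after the GC correction (0.55 and 0.98) and with TNF_SnxB library 1 alone (0.56 and 0.99) as well. Senexin B without TNFα lowered 2, against 1.69% of all tested genes, namely DUSP2 (-0.44, SE 0.109, adjusted p = 0.0267) and DUSP14 (-0.21, SE 0.056, adjusted p = 0.0403). Both calls were lost with DESeq2 and without any 1 of the 3 DMSO and the 3 SnxB libraries. Under TNFα it lowered DUSP2 (-0.61, SE 0.0998, adjusted p = 7.99e-05) and raised DUSP16 (0.20) and DUSP19 (0.30). These are 3 of 12, against 27.2% of all tested genes (11.6% after the GC correction). After the GC correction the other DUSP family phosphatases called were DUSP2 (-0.38) and DUSP16 (0.18), and with TNF_SnxB library 1 alone 0 were called, with DUSP2 at -0.45 (adjusted p = 0.107).

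Of 16 other ERK pathway inhibitors, all tested, TNFα alone changed 0 by edgeR and by DESeq2, with 2 at an unadjusted p under 0.05, and 1 without TNF_SnxB library 1. Senexin B alone lowered 1, against 1.69% of all tested genes. This was DUSP7, another cytoplasmic ERK phosphatase, which Senexin B lowered from 46.8 ± 2.47 to 37.1 ± 2.27 CPM (log2 fold change -0.34, SE 0.0678, edgeR adjusted p = 0.00328). Under TNFα it lowered 5 and raised 3 of the 16, against 27.2% of all tested genes called. DUSP7 went from 46.1 ± 2.02 to 31.2 ± 1.93 CPM (-0.55, SE 0.0639, adjusted p = 5.1e-07), the ERK phosphatase DUSP9 fell by 0.44 and the RAS inhibitor NF1 rose by 0.20 on the log2 scale. Of these 8 other ERK pathway inhibitors 2 were called after the GC correction, DUSP7 (-0.37) and IL17RD, against 11.6% of all tested genes, and with TNF_SnxB library 1 alone DUSP7 only (-0.47), against 2.64%. SPRY3 and SPRED3, the remaining Sprouty and Spred genes, stood at 2.75 ± 0.491 and 1.26 ± 0.227 CPM in DMSO and were called in no comparison.

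The core ERK cascade itself, 27 tested genes from receptors to kinases, had 1 call with TNFα alone, the receptor FGFR2 (0.34, SE 0.0627, adjusted p = 0.000921), and 1 with Senexin B alone, the receptor ERBB2 (0.22, SE 0.0588, adjusted p = 0.042). Over all tested genes 2.02% and 2.03% were called in these 2 comparisons. The ERBB2 call was lost without any 1 of the DMSO, SnxB or TNF libraries, where the count was 0. Under TNFα, Senexin B raised 8 and lowered 3 of the core ERK cascade, among them SOS2 (0.38) upward and HRAS (-0.38) and FGFR3 (-0.28) downward, against 13.3% of all tested genes higher and 13.9% lower. After the GC correction 4 of the core ERK cascade were called, against 11.6% of all tested genes, with SOS2 at 0.25, HRAS at -0.09 and FGFR3 at -0.07. With TNF_SnxB library 1 alone edgeR called 0. With all libraries DESeq2 called 11, and 14 had an unadjusted p under 0.05.

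Of 22 genes listed as ERK output 20 were tested. ERK activity was not measured, and the part of ERK in the changes of these genes was not tested. TNFα raised 3 and lowered 1, against 1.43% and 0.594% of all tested genes. It raised IER3 (10.5 ± 1.76 to 138 ± 3.46 CPM, log2 fold change 3.70, SE 0.0728, edgeR adjusted p = 2.29e-25), PHLDA1 (1.49) and EPHA2 (0.44), and lowered EPHA4 (-0.41). Senexin B alone lowered 4 and raised 0, against 1.69% and 0.344% of all tested genes. Among the 4 that Senexin B lowered were MYC (-2.33, SE 0.073, adjusted p = 4.29e-20), EGR1 (10.6 ± 0.0673 to 5.96 ± 0.502 CPM, -0.83, SE 0.126, adjusted p = 7.32e-05) and CCND1 (-0.48). Under TNFα it lowered 6 of the 20 and raised 0, against 13.9% of all tested genes lower and 27.2% called in all, among them MYC (-2.06), IER3 (-1.35) and EGR1 (-1.22). After the GC correction and with TNF_SnxB library 1 alone 6 ERK output genes were called, 5 of them in common with those 6 (CCND1, EGR1, IER2, IER3 and MYC). The median over the ERK output genes was -0.08 without and -0.20 with TNFα, against 0.00 over all tested genes in both.

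Of the 20 genes of the JNK and p38 cascade 19 were tested. TNFα raised 1 of them, against 1.43% of all tested genes. This was the kinase MAP3K8, which was counted in this list and not in the core ERK cascade. MAP3K8 went from 4.02 ± 0.563 to 12.2 ± 0.383 CPM (log2 fold change 1.61, SE 0.124, edgeR adjusted p = 1.26e-10). MAP3K8 rose in cells given Senexin B too (1.63, SE 0.144, and 1.60 both after the GC correction and with TNF_SnxB library 1 alone). Senexin B alone changed 0 by edgeR and by DESeq2, with 1 at an unadjusted p under 0.05. Under TNFα it raised 6 and lowered 5 genes of the JNK and p38 cascade, among them TAB2 (0.28) and MAPK9 (0.19) upward and MAP2K3 (-0.26) downward, against 13.3% and 13.9% of all tested genes. Of those 11, MAP3K5, MAPK9 and TAB2, 3 in all, were called after the GC correction, against 11.6% of all tested genes, and with TNF_SnxB library 1 alone TAB2 only, against 2.64%.

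The tested genes whose log2 CPM followed each gene most closely over the 12 libraries are given as a description, since all points share the libraries, the treatments and their depth. For DUSP1 these were JUN (Pearson r = 0.982), the AP-1 subunit, and C10orf2 (0.973). The group means of JUN were 402 ± 13.6 CPM in TNF, 276 ± 12.2 in DMSO, 130 ± 8.62 in TNF_SnxB and 116 ± 3.58 in SnxB, the order that DUSP1 had. For DUSP5 they were the early response factors FOSL2 (0.895) and ATF3 (0.855). DUSP10, called with all libraries only for the average TNFα effect, was followed by KCNV1 (0.866) and USP31 (0.866). For SPRY1 they were ID2 (0.919) and PIK3R3 (0.915), and for SPRY2 the Hedgehog receptor PTCH1 (0.918) and TIRAP (0.907). SPRY4 was followed by LRCH3 (0.888) and BRAP (0.886), and SPRED2 by PRICKLE1 (0.957) and SMG8 (0.936). Among the 10 genes themselves, SPRY1 and SPRY4 ran opposite to each other (-0.866), SPRY4 ran with SPRED2 (0.765) and DUSP1 with DUSP5 (0.728).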

How the data were processed

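Bulk RNA sequencing of HEK293 cells was analysed for 12 libraries in 4 groups of 3. The deposited table holds whole-number counts for each gene symbol and library, not normalized by the authors. Per the labels' protocols, an RNeasy kit gave the total RNA and a TruSeq RNA kit the libraries. Per the submitters' processing notes, the genome was hg38 (GRCh38) and the tools were STAR 2.4, SAMtools 1.2 and featureCounts of Subread 1.4.6. For the annotation and the strand setting, the sources used here give nothing.

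Genes were filtered with filterByExpr (minimum count 10, at least 0.911 CPM in 3 libraries), and untested genes took up to 0.181% of a library's counts. The 14822 tested genes were TMM-scaled, and edgeR's quasi-likelihood model was fitted over all 12 libraries, which share 1 estimate of the spread (biological coefficient of variation 3.49%). Contrasts were tested two-sided with Benjamini-Hochberg adjustment over all tested genes and called at an adjusted p under 0.05. CPM and RPKM values are means and SD over libraries. The fits were checked on simulated data. Floors cover counting error only.

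Alternatives were DESeq2, its median-of-ratios size factors in edgeR, fitting only the groups compared, no low-count filter, a block for the replicate number, loess offsets on transcript GC and length (span 0.3), block and offsets together, each library left out, TNF_SnxB libraries 2 and 3 left out, and a fold of at least 1.5. In the last but one, TNF_SnxB library 1 stands alone and is assumed to vary like the other groups. The averaged contrasts were added after the data were seen. The 10 genes, the pathway lists and the alternatives were chosen with earlier results of these data known. The text names all 10 genes, at most 3 called genes of smallest adjusted p per list and contrast, the check genes, and for each called gene the 2 genes of highest Pearson r (log2 CPM, prior count 2). SPRY3, SPRED3, EPHA4 and the genes named only as called in both fits (IL17RD, IER2 and MAP3K5) were named after their values were seen.

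Gene positions, exon lengths and GC content were read from GENCODE release 29 (GRCh38) by symbol, found for 13419 tested genes (90.5%), and promoter windows from RefSeq (GRCh38.p14). Versions used: Python 3.11.15 with matplotlib 3.10.9, and R 4.3.3 with DESeq2 1.42.0, edgeR 4.0.16 and limma 3.58.1.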

Additional observations from a re-analysis of the deposited data

How the results depend on the processing

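Of the 10 genes, the number called by edgeR for TNFα without inhibitor was 1 in every alternative except with a fold of at least 1.5, where it was 0 (5 at an unadjusted p under 0.05 without that fold; DESeq2 called 1), and it was 1 without any single library. For Senexin B without TNFα it was 2, against 1 with DESeq2, with the replicate block and with a fold of at least 1.5, and 1 to 2 without single libraries. For Senexin B under TNFα it was 5, against 3 with DESeq2, 2 with TNF_SnxB library 1 alone and 2 with a fold of at least 1.5, and 3 to 6 without single libraries (3 without TNF library 2, 6 without TNF_SnxB library 1). For TNFα in cells given Senexin B it was 2, against 1 with DESeq2, 1 with only the groups compared, 3 without the low-count filter, 3 after the GC correction, 0 with TNF_SnxB library 1 alone and 0 with a fold of at least 1.5, and 0 to 4 without single libraries (0 without TNF_SnxB library 2, 4 without TNF_SnxB library 1). For the interaction it was 0, and 0 to 1 without single libraries (1 without TNF_SnxB library 1). For the averaged effects the Senexin B count of 5 became 3 with DESeq2 and 2 with a fold of at least 1.5, and 4 to 5 without single libraries. The TNFα count of 4 became 2 with DESeq2 and 0 with a fold of at least 1.5, and 2 to 6 without single libraries (2 without DMSO library 1, 6 without TNF_SnxB library 1). The cause of these changes was not tested. DESeq2 gave an adjusted p to 6, 6, 5 and 2 of the 10 genes for Senexin B without TNFα, under TNFα, for TNFα with inhibitor and for the interaction, so its counts rest on fewer genes. With size factors by median of ratios every count of the 10 genes was as with TMM.

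The replicate numbers did not pair the libraries: deviations of same-numbered libraries correlated at -0.0402 to 0.0941, with 0 of 18 pairs over 0.1. With the number as a block, 1 gene was called for Senexin B without TNFα (DUSP1, with SPRY1 at an adjusted p of 0.0546), 5 under TNFα, 2 for TNFα with inhibitor (SPRY2, and SPRY4 at 0.0409 in place of SPRED2 at 0.0536) and 0 for the interaction. Over all tested genes the count for Senexin B under TNFα was 4029, against 2442 with only the groups compared, 1722 after the GC correction and 403 with TNF_SnxB library 1 alone. For TNFα in cells given the inhibitor it was 2106, against 504, 727 and 219 in the same order. For TNFα without inhibitor it was 300, against 776, 566 and 858, and for Senexin B without TNFα 301, against 742, 643 and 864. For the interaction it was 370, against 44 after the GC correction, 19 with TNF_SnxB library 1 alone, 711 without the filter and 736 with the replicate block. Without single libraries these counts ran over 1869 to 6769, 512 to 5391, 177 to 874, 172 to 879 and 3 to 4534 in that order, each highest without TNF_SnxB library 1. Of the values of the 10 genes, 0 that were called changed sign, and 45 changes of sign were of values called in neither fit. The interaction has no fit with only the groups compared, since it uses all 4. Counts of 23 to 93 per group for SPRY4 and 33 to 85 for DUSP6 limit what these genes can show.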
